A study of Mus musculus with 2 samples.

Results

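The genes described here are 10 genes of the blood-retina barrier, made up of 6 junction and adhesion genes (Cldn5, Ocln, Tjp1, Lsr, Cdh5 and Pecam1) and 4 transporter genes (Slc2a1, Slc7a5, Abcb1a and Abcg2). They were chosen by name, with earlier results of these data known. Every probe set, a group of short probes that reads one transcript, whose annotation gave one of these symbols and no other was taken. This gave 10 of 18193 genes, read by 16 of the 45101 probe sets on the array. The samples were pools of total RNA from eye cups, the back of the eye that is left when cornea, lens and optic nerve are taken off, of mice at postnatal day 13. One pool held 6 animals labelled Mfsd2a KO, and the other held 6 wild-type animals. Mfsd2a encodes a lysolipid transporter of barrier endothelium. Each pool was read on 1 Affymetrix Mouse 430 2.0 array, so every value below is a single reading and no p-value could be computed. Which stretch of Mfsd2a was removed, and the strain and sex of the animals, are not given in the labels.

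The retina is shielded from blood by a barrier with an inner and an outer part. The inner part is the endothelium of the retinal capillaries, whose cells are sealed by tight junctions built from claudins and occludin on a scaffold of zonula occludens proteins, and which carry glucose and amino acids inward and pump many lipophilic compounds out. The outer part is the retinal pigment epithelium, which has tight junctions and transporters of its own and faces the leaky capillaries of the choroid. Several of these genes are therefore active in more than one cell type of an eye cup, and a lower reading in bulk RNA cannot tell fewer cells of a type from less RNA per cell.

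None of the 10 genes differed by as much as 1.2-fold between the pools, with 0 above that size on the array labelled KO and 0 below it. Of all 11568 measured genes, 1.79% were that much higher and 1.17% that much lower. Each gene was read by its brightest probe set and called measured if the larger reading was no lower than a floor, the median of non-control probe sets on the same array (93.4 on the array labelled KO, 94.2 on the wild-type array). All 10 genes met this floor. Their log2 differences, the array labelled KO minus wild type, ran from -0.21 to 0.073, with a median of -0.028, where the median of all measured genes was 0.014. Of the 10 genes, 7 lay below 0, beside 42.4% of measured genes. At the smaller size of 1.1-fold, 3 of the 10 were lower (Cldn5, Abcb1a and Pecam1) and 0 were higher, beside 6.6% of measured genes lower and 9.8% higher by that much. At 1.1-fold the lower share among the 10 is above that background, but it rests on 3 single readings, each under 1.2-fold.

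Mfsd2a itself was read by 1 probe set, with an intensity of 244 on the array labelled KO and 181 on the wild-type array. The deleted gene was therefore 1.35-fold higher, not lower, where its label says knockout. A probe set outside the deleted part would check nothing, and where its probes lie was not analysed here, so each direction given here rests on the label. The hybridisation spike-ins, bacterial and phage transcripts added in fixed amounts, differed by a median of 0.099 on the log2 scale, 17 of 18 above 0, which is larger than the difference of 7 of the 10 barrier genes. The ratio of 3' to 5' signal, a measure of RNA integrity, was 1.44 on the array labelled KO and 1.49 on the wild-type array for beta-actin, and 0.942 and 0.973 for Gapdh in the same order.

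The promoter sequences of 3 genes are shown because the first 2 belong to the genes with the most negative differences for which the RefSeq table (build GRCm38.p6) held a promoter, and the third to the gene whose difference was closest to 0. They were chosen after the values were seen. Each is the 250 bases before the annotated start, read 5' to 3' on the gene's own strand, with 4 motifs in capitals wherever they occur on either strand: the CCAAT box (CCAAT), the GC box (GGGCGG), the TATA box (TATAAA) and the hypoxia response core (ACGTG). The Cldn5 window lies at chr16:18776597-18776846 on the plus strand, that of Abcb1a at chr5:8566841-8567090 on the plus strand and that of Slc2a1 at chr4:119108495-119108744 on the plus strand.
Cldn5: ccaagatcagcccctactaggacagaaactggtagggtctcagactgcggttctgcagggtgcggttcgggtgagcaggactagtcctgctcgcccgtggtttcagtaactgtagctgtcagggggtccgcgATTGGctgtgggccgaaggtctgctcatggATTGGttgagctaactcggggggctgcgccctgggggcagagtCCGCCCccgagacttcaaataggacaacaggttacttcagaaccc
Abcb1a: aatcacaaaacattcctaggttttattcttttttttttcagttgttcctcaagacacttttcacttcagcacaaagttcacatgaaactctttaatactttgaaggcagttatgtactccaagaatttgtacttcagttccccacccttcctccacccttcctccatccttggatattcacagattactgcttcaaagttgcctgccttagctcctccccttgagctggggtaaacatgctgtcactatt
Slc2a1: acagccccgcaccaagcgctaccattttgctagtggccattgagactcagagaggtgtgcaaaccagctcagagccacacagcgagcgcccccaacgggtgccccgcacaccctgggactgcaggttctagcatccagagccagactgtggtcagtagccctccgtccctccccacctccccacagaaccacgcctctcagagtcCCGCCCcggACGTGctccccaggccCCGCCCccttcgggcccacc
The Cldn5 window held 2 copies of CCAAT, both as its reverse complement ATTGG, and 1 GC box. The Slc2a1 window held 2 GC boxes and 1 ACGTG, and the Abcb1a window held 0 of the 4 motifs. No motif overlapped another. Among 32851 mouse promoter windows of the same length, 33.8% held CCAAT, 32.7% the GC box, 12.4% TATAAA and 16.6% ACGTG. The windows differed in base composition, with 59.6% G or C in Cldn5, 40.4% in Abcb1a and 66.4% in Slc2a1. These matches describe letters only. The table held promoters for 7 of the 10 genes.

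Cldn5 (chromosome 16, 18776847 to 18778262, GRCm38.p6) encodes claudin-5, the main claudin of barrier endothelium, which closes the gap between neighbouring cells to small molecules. Its 1 probe set read 820 on the array labelled KO and 949 on the wild-type array. The log2 difference was -0.212, or 1.16-fold lower, the largest in size of the 10 genes. It lay just outside the central 95% of measured genes, which ran from -0.206 to 0.234, with 2.33% of measured genes lower still. With 1 probe set there was no second reading of this transcript.

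Ocln (chromosome 13, 100496504 to 100552718) encodes occludin, a membrane protein of tight junctions in endothelium and epithelium alike. Its brighter probe set read 111 on the array labelled KO and 114 on the wild-type array, and its dimmer one 95.7 and 101 in the same order. The differences of -0.038 and -0.073 had the same sign, and both probe sets lay close to the floor. Tjp1 (chromosome 7, 65296165 to 65527850), which encodes ZO-1, the scaffold that ties these proteins to actin in most epithelia and endothelia and at neural and glial contacts, went the other way. It read 1297 on the array labelled KO and 1260 on the wild-type array, a log2 difference of 0.042. Its probe set name (_a_at) marks probes shared by several transcripts of the gene.

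Lsr (chromosome 7, 30957770 to 30973469) encodes angulin-1, which marks the corners where 3 cells meet and recruits tricellulin there. It read 167 on the array labelled KO and 159 on the wild-type array, a log2 difference of 0.073, the highest of the 10 genes. A dimmer probe set, far below the floor at 23.5 and 20.2 in the same order, differed by 0.22. The partner of angulin-1 in these corners, tricellulin (Marveld2), was also below the floor, with 60.4 on the array labelled KO and 56.0 on the wild-type array. Both probe sets of Lsr were higher on the array labelled KO, as was that of Tjp1.

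Cdh5 and Pecam1 hold endothelial cells together outside the tight junction. Cdh5 (chromosome 8, 104101613 to 104144504), which encodes VE-cadherin of endothelial adherens junctions, read 161 on the array labelled KO and 163 on the wild-type array. That is a log2 difference of -0.018. Its other probe set, at 16.2 and 17.7 in the same order, was far below the floor and differed by -0.12. Pecam1 (chromosome 11, 106654213 to 106715281), an adhesion molecule of endothelium that platelets and some leukocytes also carry, read 116 on the array labelled KO and 128 on the wild-type array. The log2 difference was -0.14, which is 9.15% below wild type on the linear scale, with 6.50% of measured genes lower still. Cldn5, Cdh5 and Pecam1, the 3 genes among the 10 that are most restricted to endothelium within an eye, were all below 0 but not by like amounts: on the linear scale the reading of Cdh5 was 1.23% below wild type and that of Cldn5 13.6% below it.

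**Figure D1:**
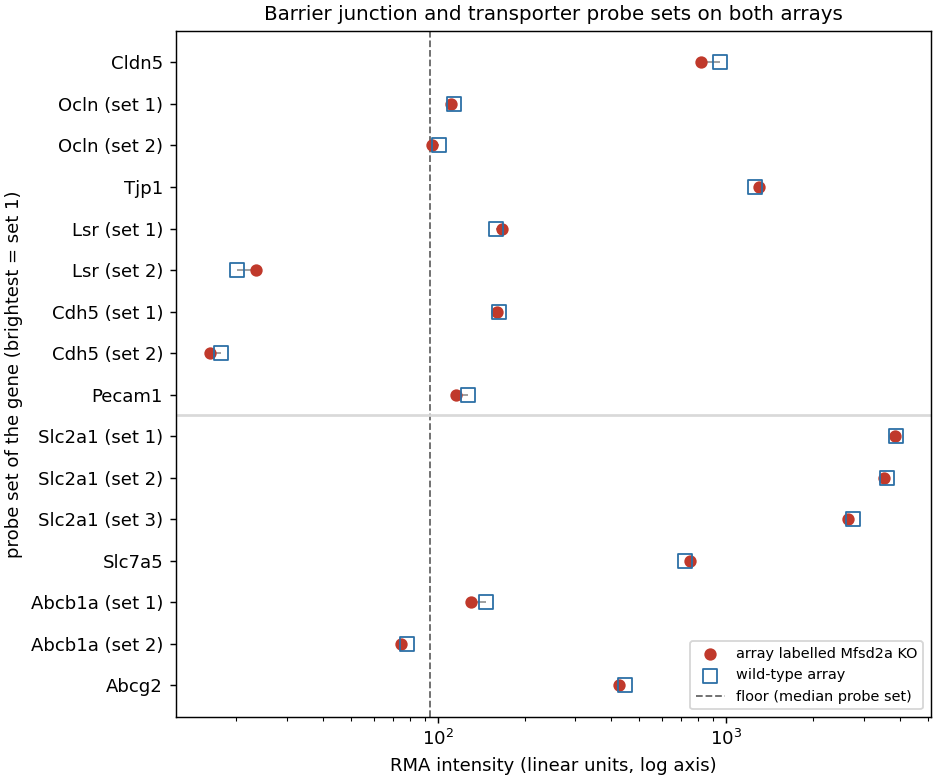
RMA intensity (log axis) of each of the 16 probe sets of the 10 barrier genes on the array labelled Mfsd2a KO (filled circles) and the wild-type array (open squares), with the floor as a dashed line; junction and adhesion genes stand above the grey line and transporters below it. The paired symbols nearly coincide, the largest gap above the floor is that of Cldn5 (820 against 949), and the dim sets of Lsr, Cdh5 and Abcb1a lie below the floor.

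Among the transporters, Slc2a1 (chromosome 4, 119108745 to 119137330) encodes GLUT1, the glucose carrier of barrier endothelium and pigment epithelium, which photoreceptors and glia express as well. It had 3 probe sets, all above the floor. The first read 3856 on the array labelled KO and 3888 on the wild-type array, the second 3513 and 3604, and the third 2635 and 2747, each pair in that order. The differences of -0.012, -0.037 and -0.060 shared a sign and were all smaller than the SD of 0.0886 that separated probe sets of the same gene across 5201 measured genes. Slc2a1 lies on the same chromosome as Mfsd2a, 3.81 Mb before it. The 21 measured genes between them had a median difference of 0.0086 and ran from -0.32 to 0.19. Of these, 0 were at least 1.2-fold higher and 1 as much lower, beside 1.79% and 1.17% of all measured genes in that order. That 1 gene, Ermap, an erythroid membrane protein gene named here after its value was seen, read 133 on the array labelled KO and 166 on the wild-type array.

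Slc7a5 (chromosome 8, 121881146 to 121907686) encodes LAT1, the light chain of the exchanger that brings large neutral amino acids across the barrier and also serves growing cells in general. It read 751 on the array labelled KO and 720 on the wild-type array, a log2 difference of 0.061. Its heavy chain, Slc3a2, read 1556 on the array labelled KO and 1614 on the wild-type array, a difference of -0.053, so the 2 chains of one exchanger had opposite signs at sizes below the SD between probe sets.

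The remaining pair of transporters are efflux pumps that use ATP. Abcb1a (chromosome 5, 8567091 to 8748575) encodes P-glycoprotein, which returns lipophilic drugs from endothelium to blood. Its brighter probe set read 131 on the array labelled KO and 147 on the wild-type array, a log2 difference of -0.17 or 1.12-fold lower. Its second probe set, below the floor at 74.7 and 78.1 in the same order, differed by -0.064. The near copy Abcb1b was well below the floor, at 19.6 on the array labelled KO and 18.7 on the wild-type array; whether probes of one copy also bind the other was not tested. Abcg2 (chromosome 6, 58584491 to 58692451), the breast cancer resistance protein pump of barrier endothelium, read 425 on the array labelled KO and 446 on the wild-type array, a difference of -0.067.

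**Figure D2:**
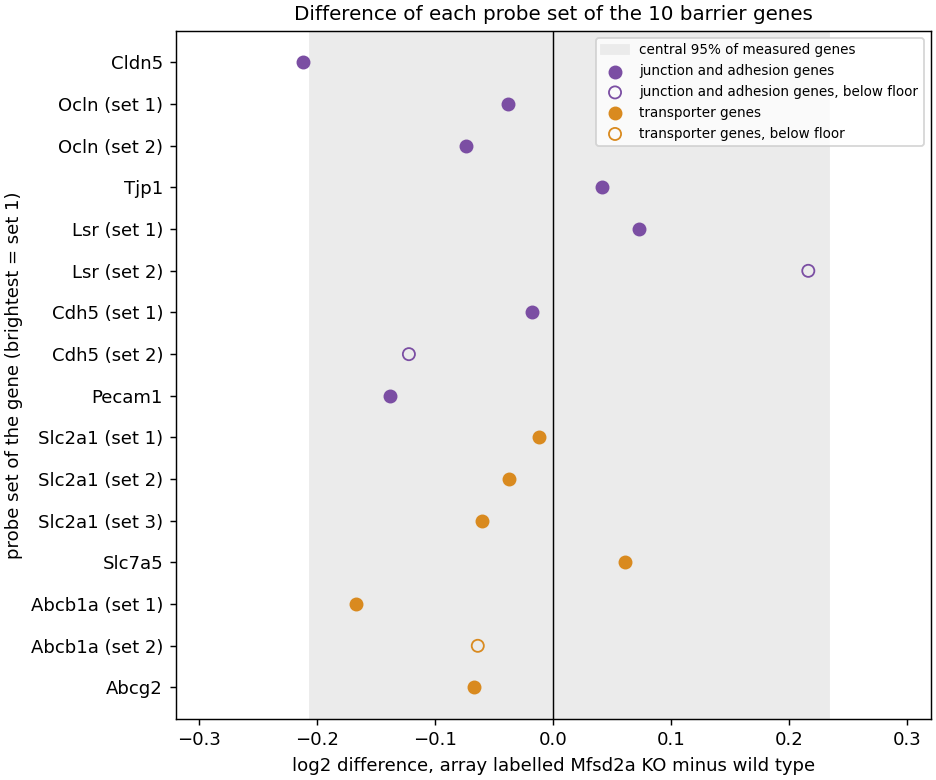
Log2 difference (array labelled Mfsd2a KO minus wild type) of each probe set of the 10 barrier genes; filled circles are above the floor and open circles below it, and the grey band is the central 95% of all measured genes. Only the Cldn5 probe set lies outside the band, at its lower edge, and the sets of Tjp1, Lsr and Slc7a5 lie right of 0.

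Seen by probe set rather than by gene, 13 of the 16 lay above the floor, of which 10 were below 0, beside 42.1% of the 20105 named probe sets above the floor. Their median was -0.038, and that of all named probe sets was 0.016. The 5 genes with more than 1 probe set (Ocln, Lsr, Cdh5, Slc2a1 and Abcb1a) kept 1 sign over all of theirs, and the SD between probe sets of the same gene was 0.0617, with those below the floor included. By role, the 6 junction and adhesion genes had a median of -0.028 with 4 below 0, and the 4 transporters a median of -0.040 with 3 below 0. Of all measured genes, 42.4% were below 0, with a median of 0.014. The difference between the roles is smaller than the spread among the genes of either role.

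**Figure D3:**
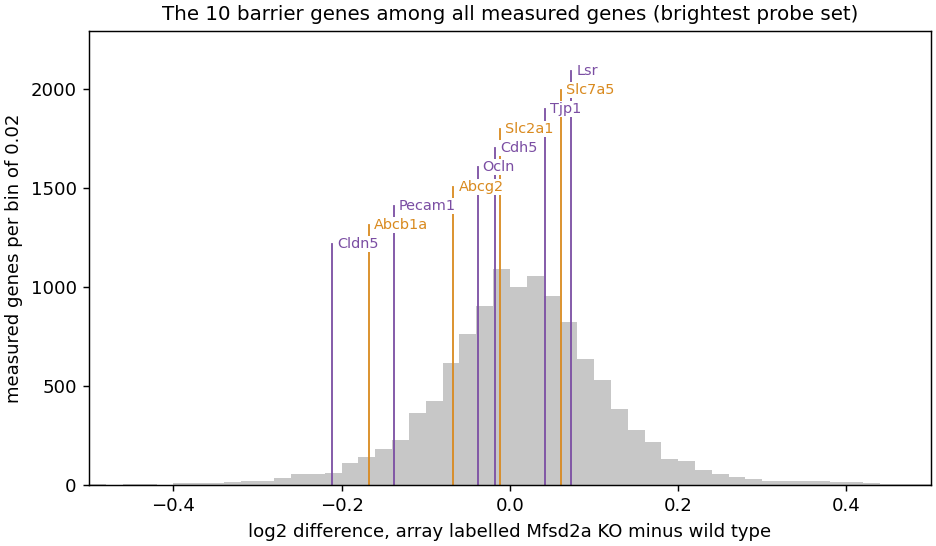
Histogram of the log2 difference (array labelled Mfsd2a KO minus wild type) of measured genes in bins of 0.02, with the 10 barrier genes as vertical lines (junction and adhesion genes purple, transporters orange; line height only separates the names). The 42 measured genes at or beyond 0.5 in size are off the axis; Cldn5, Abcb1a and Pecam1 stand in the left tail and the other 7 inside the bulk.

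Other genes of the same machinery were read from lists written by name, with earlier results of these data known. Of 26 listed junction genes, 18 were measured, of which 10 were below 0, with a median of -0.014. By their brightest probe sets, 0 reached 1.2-fold in either direction, 2 were at least 1.1-fold lower and 1 at least 1.1-fold higher, beside 42.4% of all measured genes below 0, 6.6% at least 1.1-fold lower and 9.8% higher. Cldn3, a claudin known mainly from epithelia, read 115 on the array labelled KO and 135 on the wild-type array (-0.24). Cgnl1, which encodes paracingulin at the junction's inner face, read 253 on the array labelled KO and 294 on the wild-type array (-0.22), although its 5 probe sets ran from -0.22 to 0.14. The claudins Cldn1 and Cldn2 differed by -0.066 and -0.12, but the dimmer of the 2 probe sets of Cldn2, below the floor, differed by -0.44, so that the mean over its probe sets, -0.28, is past 1.2-fold. On the higher side were Cdh2, N-cadherin of neurons and glia, at 2164 on the array labelled KO and 1900 on the wild-type array (0.19), and the junctional adhesion molecule Jam2 (0.13). The 5 probe sets of Jam2 ran from -0.10 to 0.16, with a mean of 0.032. Ildr2, a relative of Lsr, differed by -0.045, and the claudins Cldn10 and Cldn12 by 0.036 and 0.077.

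Of 21 further transporters known from the barrier, 18 were measured, with a median of -0.020. Of the 18, 13 were below 0 (42.4% of all measured genes) and 1 was at least 1.2-fold lower (1.17%). At least 1.1-fold lower were 3 (6.6%), and 0 were as much higher (9.8%). Slco1c1, which carries thyroxine into brain and retina, read 336 on the array labelled KO and 458 on the wild-type array (-0.45), a larger difference than any of the 10 genes showed. Slc16a1, the lactate carrier MCT1, read 4410 on the array labelled KO and 5207 on the wild-type array (-0.24), and its 2 probe sets agreed closely, at -0.24 and -0.22. The organic anion transporter Slc22a8 differed by -0.20, the glutamine carrier Slc38a5 by -0.099 and the cationic amino acid carrier Slc7a1 by -0.017.

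Transcripts of the cell types that could carry the 10 genes were read in the same way. Counts and medians are over measured genes, while summed intensities are over every listed gene matched on the array, those below the floor included. Endothelial genes had 15 of 21 measured members below 0, a median of -0.067, 9 at least 1.1-fold lower and 0 as much higher, where all measured genes had 42.4% below 0, 6.6% at least 1.1-fold lower and 9.8% higher. Tie1 (-0.24), Clec14a (-0.23), Flt1 (-0.20) and Robo4 (-0.20) were lowest, while Tek differed by -0.052 and Kdr, the VEGF receptor, by 0.078. The 4 probe sets of Flt1 ran from -0.20 to -0.014. Tie1, at 88.6 on the array labelled KO and 104 on the wild-type array, met the floor only by its wild-type reading. Robo4, at 95.4 and 109 in the same order, lay close to the floor. The summed intensity of all 22 endothelial genes was 5537 on the array labelled KO and 5784 on the wild-type array, a log2 difference of -0.063. This sum includes Fli1, just below the floor at 92.8 and 79.1 in the same order. Fli1 differed by 0.23, or by -0.034 in its other probe set, so the count of 0 higher depends on the floor. Pericyte and smooth muscle genes had 8 of 10 below 0 and a median of -0.046. Abcc9 was at -0.27, Tagln at -0.17, Rgs5 at -0.13 and Pdgfrb at -0.026, but Mcam at 0.27 and Higd1b at 0.18. The 3 probe sets of Abcc9 ran from -0.32 to -0.042. All 13 pericyte and smooth muscle genes, with Cspg4, Anpep and Myh11 below the floor, summed to 6790 on the array labelled KO and 7263 on the wild-type array. Pigment epithelium genes had 9 of 11 below 0 and a median of -0.10. Rdh5 (-0.34), Lrat (-0.31) and Rgr (-0.30), all of the visual cycle, were lowest, with Pmel at -0.13 and Rpe65 at -0.078. The 2 above 0 were Krt18 (0.12) and Ttr (0.019). All 13 pigment epithelium genes, with Best1 and Cdh1 below the floor, summed to 34639 on the array labelled KO and 36754 on the wild-type array. Ttr alone gave 16010 and 15804 of these sums in the same order. The part of these cell types in the readings of the 10 genes was not tested.

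Photoreceptor genes, which define the labelled tissue, were above the floor in all 7 cases. Of the 7, 4 were below 0, beside 42.4% of all measured genes, and the median was -0.019. Gnat1 differed by -0.079, Prph2 by -0.052, Pde6b by 0.018, Sag by 0.034 and Crx by 0.11. Mueller glia genes had 5 of 8 below 0 and a median of -0.036, with Dkk3 at -0.075, Kcnj10 at -0.060, Glul at -0.041, Rlbp1 at -0.030, Slc1a3 at 0.036, Apoe at 0.060 and Vim at 0.16. Summed intensities were 75005 on the array labelled KO and 75135 on the wild-type array for photoreceptors, and 29230 and 29295 in the same order for Mueller glia.

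The lists of cornea and conjunctiva epithelium and of lens, tissues that border the eye cup, had medians farther from 0 than that of the barrier genes. These lists, like the 10 genes, were chosen with earlier results of these data known. Of all measured genes, 42.4% were below 0, and their median was 0.014. All 8 measured genes of cornea and conjunctiva epithelium, which also has Ocln, Tjp1 and Lsr in its junctions, were below 0, with a median of -0.36. Aldh3a1 (-0.62), Krt14 (-0.56), Krt4 (-0.53) and Krt15 (-0.40) were lowest. Krt5 differed by -0.33 and Krt12 by -0.11, and Cldn7, an epithelial claudin, by -0.11. Aldh3a1, at 92.7 on the array labelled KO and 142 on the wild-type array, met the floor only by its wild-type reading. The 3 probe sets of Krt14 ran from -0.67 to 0.11. With Krt13, Trp63, Cldn4, Epcam and Ovol1, which were below the floor, the 13 genes summed to 1787 on the array labelled KO and 2196 on the wild-type array. Lens genes had 6 of 7 above 0, beside 6454 of all 11568 measured genes above 0. Their median was 0.21 (Cryga 0.40, Cryaa 0.35, Crybb2 0.23, Cryab 0.21, Cryba1 0.039). All 9 lens genes, with Mip and Bfsp1 below the floor, summed to 3856 on the array labelled KO and 3396 on the wild-type array. Only 1 erythroid gene was measured, Alas2, at -0.24; the sum of the 4 erythroid genes was 212 on the array labelled KO and 242 on the wild-type array, and Hba-a1, Slc4a1 and Epb42 were below the floor. Leukocyte and platelet genes, some of whose cells carry Pecam1, had 2 of 4 measured below 0 and a median of -0.019, with Itga2b at -0.11, Pf4 at -0.063, Csf1r at 0.024 and Cx3cr1 at 0.41, or 0.014 in its other probe set; all 8, with Ptprc, Itgam, Cd68 and Gp9 below the floor, summed to 1766 on the array labelled KO and 1689 on the wild-type array. The part of these tissues in the readings was not tested, and with 1 pool per genotype, genotype, tissue make-up and array handling cannot be told apart.

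**Figure D4:**
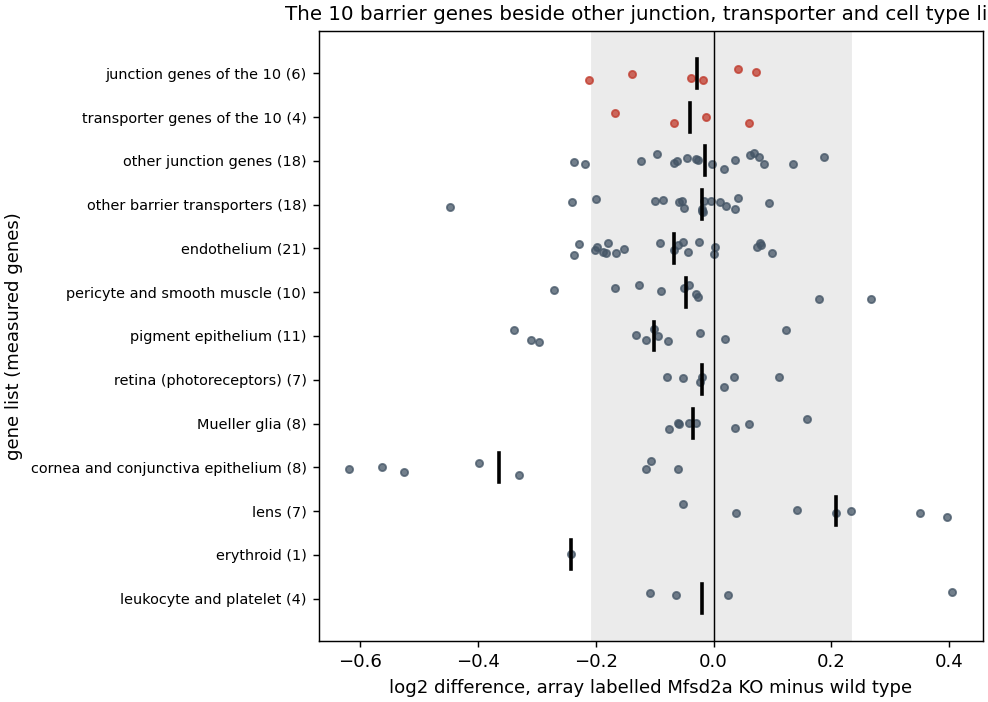
Log2 difference (array labelled Mfsd2a KO minus wild type) of each measured gene, by list, with the 10 barrier genes in red at the top, the median of each list as a black bar and the central 95% of measured genes as a grey band; the number of measured genes is in brackets and vertical scatter within a list carries no value. The barrier genes lie close to 0 beside the cornea and conjunctiva list, with a median of -0.36, and the lens list, with a median of 0.21.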

How the data were processed

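Total RNA of 2 pools, each of 6 animals, was hybridised to 1 Affymetrix Mouse 430 2.0 array per pool. The authors deposited linear intensities, made with RMA, which equalises arrays and compresses differences at low signal, and Partek 6.6, per the submitters' processing notes; settings are not given in the sources used here. From these deposited intensities, log2 values were taken and the wild-type value was subtracted from that of the array labelled KO. The platform annotation gave 1 symbol for 34945 probe sets other than controls, and each of 18193 genes was read by its probe set with the highest mean. A size of 1.2-fold was fixed for counts. With 1 array per group no test was made, and precision is limited by the number of arrays. Named genes are the 10 barrier genes, Mfsd2a and, in each list, the first 3 measured genes and the 4 with the largest differences. List genes beyond these (Marveld2, Abcb1b, Ildr2, Cldn7, Cldn10, Cldn12, Krt18 and Ttr, and genes below the floor) were named after their values were seen. The 10 genes and the 11 lists were chosen with earlier results of these data known. Listed genes with no probe set of their own symbol were not analysed here. Python 3.11.15 was used, with pandas 2.3.3, numpy 2.4.6 and, for loess, statsmodels 0.14.6, and the steps were tested on simulated data. Alternatives were the mean of probe sets, a floor at the 70th percentile or none, leaving out probe sets ending in _s_at, _x_at or _a_at, centring, removal of a loess trend (span 0.3, 3 iterations), and sizes of 1.1-fold and 1.5-fold.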

Additional observations from a re-analysis of the deposited data

How the results depend on the processing

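No paired analysis was possible because there is 1 array per genotype. None of the 10 genes changed sign under any alternative that gave a value for it. Cldn5, Tjp1, Pecam1, Slc7a5 and Abcg2 have 1 probe set each, so only centring and removal of the loess trend could move their values. The count of 0 genes at least 1.2-fold lower became 3 at 1.1-fold and was 0 at 1.5-fold. The 3 genes at 1.1-fold (a count added after seeing the data) were 1 of 5 measured, Cldn5, with the floor at the 70th percentile, beside 4.36% of all genes measured there. They were 2 of 8 with the mean of probe sets (Cldn5 and Pecam1, beside 5.61%), 2 of 8 without the probe sets with suffixes (Cldn5 and Abcb1a, beside 7.04%, Pecam1 having no other probe set) and 2 of 10 with the loess trend removed (Cldn5 and Abcb1a, beside 7.67%, Pecam1 at -0.13). Of the 10 genes, 7 were below 0, beside 42.4% of all measured genes. That count stayed at 7 of 10 with centring (50% of measured genes), the loess trend removed (49.6%) and no floor (48.8%). At the higher floor it was 3 of the 5 measured (40.9%). It was 6 of 8 with the mean of probe sets (43.3%) and 6 of 8 without the probe sets with suffixes (42.8%). The median of the 10 genes, -0.028, ran from -0.062 with the mean of probe sets to -0.012 at the higher floor. With centring, which places the median of all measured genes at 0, it was -0.042. Cldn5 ranged from -0.23 to -0.21, Abcb1a from -0.18 to -0.12 and Slc2a1 from -0.060 to -0.012. With the mean of probe sets, Cldn2 was -0.28, Jam2 0.032, Lrat -0.42, Slc1a3 0.19 and Krt4 -0.39. The probe sets averaged ran from -0.44 to -0.12 for Cldn2, from -0.10 to 0.16 for Jam2 and from -0.53 to -0.31 for Lrat. Those of Slc1a3 ran from 0.016 to 0.44 and those of Krt4 from -0.53 to -0.26. Signal limits precision: the SD of log2 differences was 0.149 among the dimmest 25% of measured genes and 0.0861 among the brightest 25%, and Ocln, Pecam1, Abcb1a, Lsr and Cdh5 read below 170 on both arrays.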
